A study of Danio rerio with 16 samples.

Results

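The poly(A) sites of whole wild-type zebrafish (Danio rerio) embryos were compared between 72 and 24 hours post fertilization (hpf), with 1 library of 3P-Seq per stage. A site was a cluster of RNA 3′ ends on 1 strand, and it entered the comparison with at least 20 sequenced tags over both libraries, on a numbered chromosome or a scaffold and not on chromosome M. This gave 27364 sites out of 89825 clusters outside chromosome M, that is 30.5%, and out of 90940 clusters in all. Of these sites, 26914 lay on the 25 numbered chromosomes and 450 on 238 scaffolds, with 13774 on the plus and 13590 on the minus strand. The series has 16 samples and combines chromatin maps, RNA-Seq and 3P-Seq to look for long intergenic noncoding RNAs. Besides the embryo libraries, a 3P-Seq library of whole adults of mixed gender is used below as a further reading of the same sites. All 3 groups are labelled wild type, no treatment distinguishes them, and the sources used here do not give the strain or how many animals were pooled.

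Most eukaryotic messenger RNAs end where the nascent transcript is cut and a poly(A) tail is added, and 3P-Seq captures the RNA next to that tail. A gene may have several such sites, and the one used sets the length of the 3′ untranslated region and, at times, of the coding part. Between 1 and 3 days after fertilization the zebrafish embryo goes from the end of body segmentation to hatching, while eyes, muscle, gut, liver and circulation differentiate. The amount of 3P-Seq signal at a site depends on how many cells carry the RNA and on how much RNA each cell holds, and whole embryos do not tell these apart. No gene annotation of the genome build of the files (Zv9, also called danRer7) was used here, so sites are named by chromosome, strand and 1-based position, no gene is assigned to any of them, and the labelled tissue was not checked against marker genes.

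The 24 hpf library held 7423152 tags and the 72 hpf library 9813481, of which the compared sites took 94.7% and 93.2%. A level is given below as CPM, the tags of a site per 1000000 tags of the library, and the limit for a site without tags (3 tags) is 0.404 CPM at 24 hpf and 0.306 CPM at 72 hpf. Each stage has a single library, so the differences have no replicate check and no p-value. Each ratio carries an exact 95% interval that covers counting error only. These intervals are too narrow wherever tags are copies of the same molecule, since such tags are not independent. How many tags are copies was not tested. A compared site held a median of 7 tags per distinct mapped interval at 24 hpf and 8.33 at 72 hpf, and 3 in the adult library. At the edge of the selection, 696 clusters had exactly 20 tags over both libraries, with a median of 0.943 CPM at 24 hpf and 1.32 at 72 hpf. The 693 clusters with 19 tags, just outside, had medians of 0.943 and 1.22 CPM.

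By tags, more sites stood higher than lower at 72 hpf. Counts of distinct mapped intervals, by which few sites were called, did not show this excess. A site was called when its CPM differed by at least 4-fold and the interval of the ratio lay beyond 2-fold. Of the 27364 sites, 5561 were called higher at 72 hpf, which is 20.3%, and 2176 were called lower, which is 7.95%. The 19627 other sites were not called, and 44.3% of all sites lay within 2-fold. The median log2 ratio of 72 hpf over 24 hpf was 0.38, the middle 80% of sites ran from -1.81 to 3.99, and 59.4% of sites had a ratio above 1. The excess of higher calls depended in part on the scaling and on the tag minimum. Under scaling by the median of ratios every log2 ratio dropped by 0.28, and 4814 sites were higher and 2753 lower. Under TMM scaling every log2 ratio dropped by 0.26, and 4869 were higher and 2708 lower. Higher calls then made up 63.6% and 64.3% of all calls, against 71.9% with CPM. The third other scaling, by the library sum without chromosome M and the 10 leading sites, went the other way. Every log2 ratio rose by 0.09, 5824 sites were higher and 1994 lower, and 74.5% of calls were higher. Without the minimum of 20 tags, and with CPM, 6334 of 77339 clusters were higher and 4596 lower. Of all calls, 58.0% were then higher, whereas with a minimum of 100 tags 75.6% were. The minimum counts raw tags, of which the 72 hpf library has more. Over distinct intervals, of which even a site with many tags has few, 26 of the 27364 sites were higher and 105 lower. The median log2 ratio was -0.0543. So few calls cannot settle the balance.

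**Figure D1:**
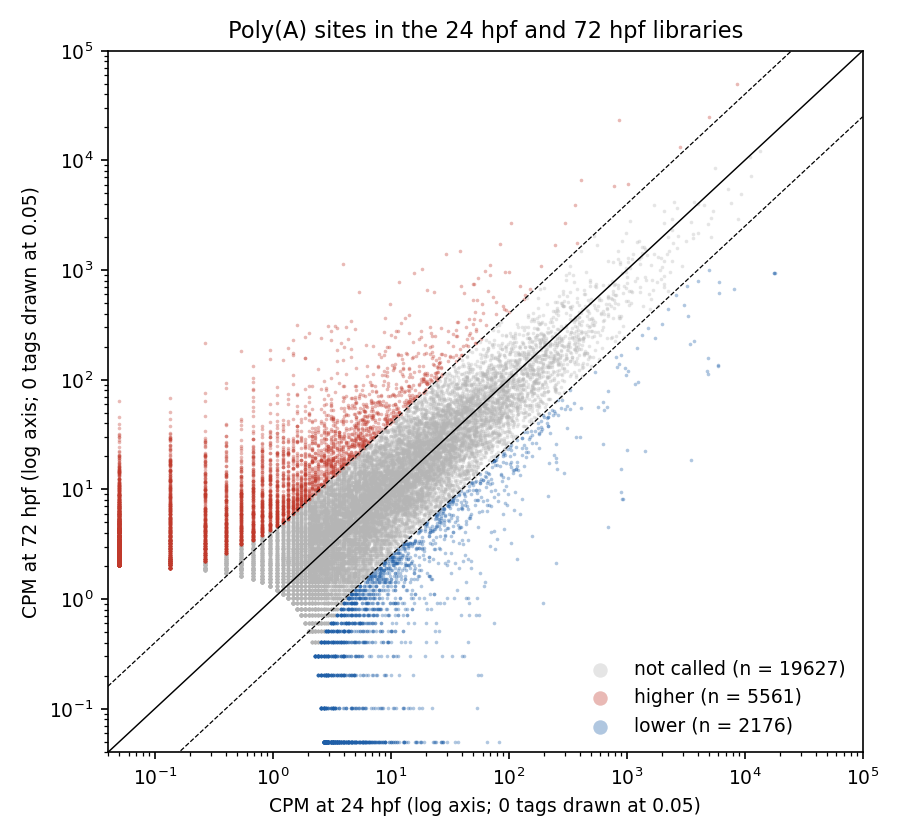
Level of each of the 27364 poly(A) sites at 24 hpf (horizontal, CPM, log axis) and at 72 hpf (vertical, CPM, log axis), with the line of equality solid and 4-fold differences dashed. Red points are the 5561 sites called higher at 72 hpf, blue points the 2176 called lower and grey points the 19627 not called; the points stacked at the left edge have no tags at 24 hpf.

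Many of the calls rest on small numbers of distinct intervals. Higher sites had a median of 1 distinct interval at 24 hpf and 7 at 72 hpf, and lower sites had 6 at 24 hpf and 2 at 72 hpf. When a call also asked for at least 5 distinct intervals in the library where the site was higher, 4236 higher and 1411 lower sites were left, a count chosen after the data were seen. In tags, the higher sites together went from 3.35% of the 24 hpf library to 27.1% of the 72 hpf library. The lower sites went the other way, from 20.3% to 1.91%. A few sites with at least 10000 tags made up much of this. Among them, 22 higher sites held 15.5% of the 72 hpf library and 28 lower sites held 14.5% of the 24 hpf library. Some of these lower sites lay in the chromosome 12 stretch described below, where the level of several sites is uncertain. These shares follow from the calls and describe their size.

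The balance of calls changed with the abundance of the sites. Among the 9750 sites with 20 to 49 tags, 24.2% were higher and 11.3% lower, with a median log2 ratio of 0.48. Among the 1941 sites with 500 to under 1000 tags, 12.5% were higher and 4.33% lower. The 191 sites with at least 10000 tags were the only one of 7 abundance classes with more lower than higher calls, 28 against 22, and their median log2 ratio was -0.40. Of those 28 lower sites, 10 lay in 1 stretch of chromosome 12 described below. Some of these were near-equal to another site, with tag totals and interval profiles that hardly differed. Without the 8 near-equal sites of this class 11.5% were lower, no longer more than were higher. In the 5 classes below 1000 tags the median stayed above 0 under all 3 other scalings, whereas that of the sites with 1000 to under 10000 tags was -0.02 and turned positive when the library sum left out chromosome M and the 10 leading sites.

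**Figure D2:**
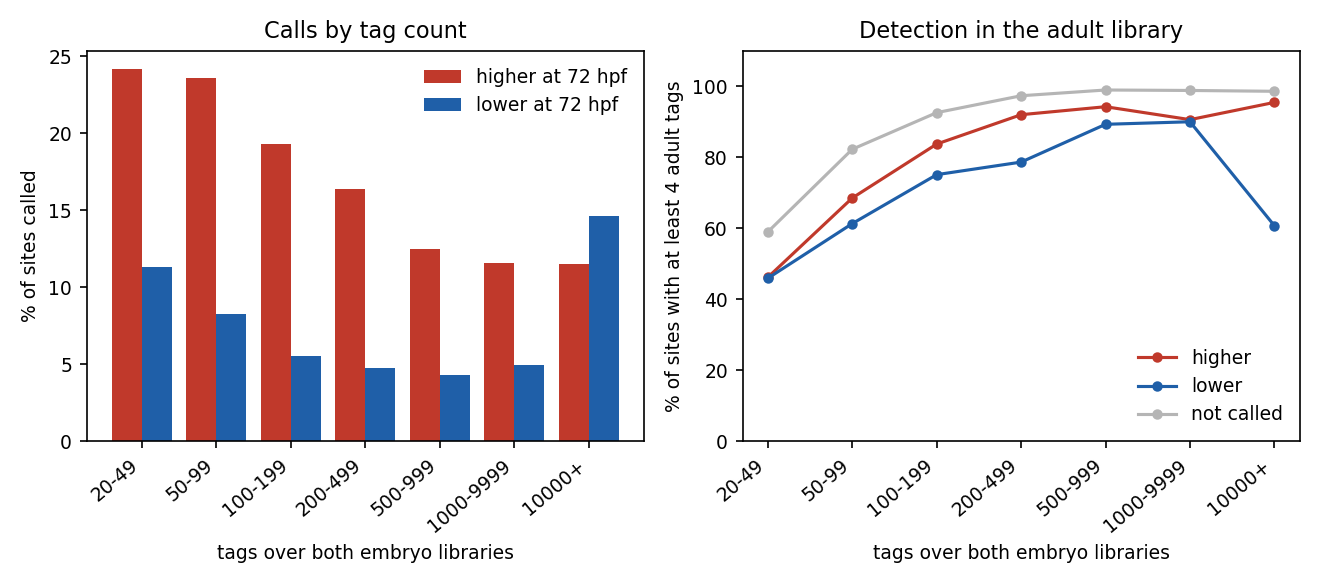
Left, percent of sites called higher (red) and lower (blue) at 72 hpf by the number of tags over both embryo libraries; right, percent of the same classes with at least 4 tags in the adult library, for higher (red), lower (blue) and uncalled (grey) sites. Lower calls outnumber higher ones only in the class of at least 10000 tags, and uncalled sites lie above both called groups in every class on the right.

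A few sites took a large part of each library, and the sites in the lead changed in part between the stages. The 10 leading sites held 12.4% of all tags at 24 hpf and 16.4% at 72 hpf, while the leading 1000 held 66.4% and 59.08%. So, with each site counted separately, the 72 hpf library was more concentrated at the very top and less so further down. The lists of 10 share 4 sites, on chromosomes 1, 8, 17 and 19. Of the 10 leading sites at 24 hpf, 4 were lower and 1 was higher at 72 hpf, and of the 10 leading sites at 72 hpf, 6 were higher and 0 lower. Each list was ranked on a level that also enters the calls, so the direction of its calls follows in part from the ranking. Of the 191 sites with at least 10000 tags, 11.5% were higher and 14.7% lower. Of the 4 lower ones in the 24 hpf list, 3 lay on chromosome 12 and were each near-equal to 2 other sites. The level of each is therefore uncertain, and so are their places in the list and the shares above.

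Among the leading sites at 24 hpf outside chromosome 12, the strongest difference was on the minus strand of chromosome 21 at 286522. Its tags numbered 59772 at 24 hpf (8052 CPM), 6609 at 72 hpf (673 CPM) and, in the adult, 1378 (184 CPM). That is 11.96-fold lower at 72 hpf (95% interval 11.7 to 12.3). A chromosome 1 minus-strand site at 38578880 went down from 8869 to 2904 CPM, which is 3.05-fold lower (interval 3.01 to 3.10) and so short of a call, with 1827 CPM in the adult. The chromosome 20 minus-strand site at 30398261 was 1.88-fold lower, going from 9235 to 4910 CPM, and the adult held 5977. Large counts thus gave narrow intervals also for ratios well within 4-fold.

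On the 72 hpf side, the widest ratio among the leading 10 belonged to the chromosome 3 minus-strand site at 61802779. Its 6431 tags at 24 hpf (866 CPM) stood against 231439 at 72 hpf (23584 CPM) and 61394 among the adult tags (8218 CPM). That is a ratio of 27.2 (95% interval 26.6 to 27.9). Its tags fell in 12 distinct intervals at 24 hpf and 56 at 72 hpf. Next was the chromosome 19 minus-strand site at 5963568, whose level of 410 CPM became 6635 CPM, while the adult held 73.1 CPM, a ratio of 16.2 (interval 15.6 to 16.8). The other 4 higher sites had ratios between 4.67 and 5.98, among them the chromosome 7 plus-strand site at 31296974 (4988 and 24926 CPM, ratio 5.00). Over distinct intervals, which numbered 91 and 108, its ratio turned to 0.874. A second chromosome 3 minus-strand site, at 32950582, went from 1022 to 6113 CPM, with 4095 in the adult. Over distinct intervals all 6 higher sites of this list and all 5 called sites of the 24 hpf list lost their calls. Under the median of ratios and TMM 1 did, on chromosome 15 at 22997268. Intervals rise little with tags at such strong sites. The chromosome 17 site at 758922 held 64060 tags in 46 intervals at 24 hpf and 493136 in 77 at 72 hpf. The loss of calls over intervals thus does not tell whether the levels differ.

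**Figure D3:**
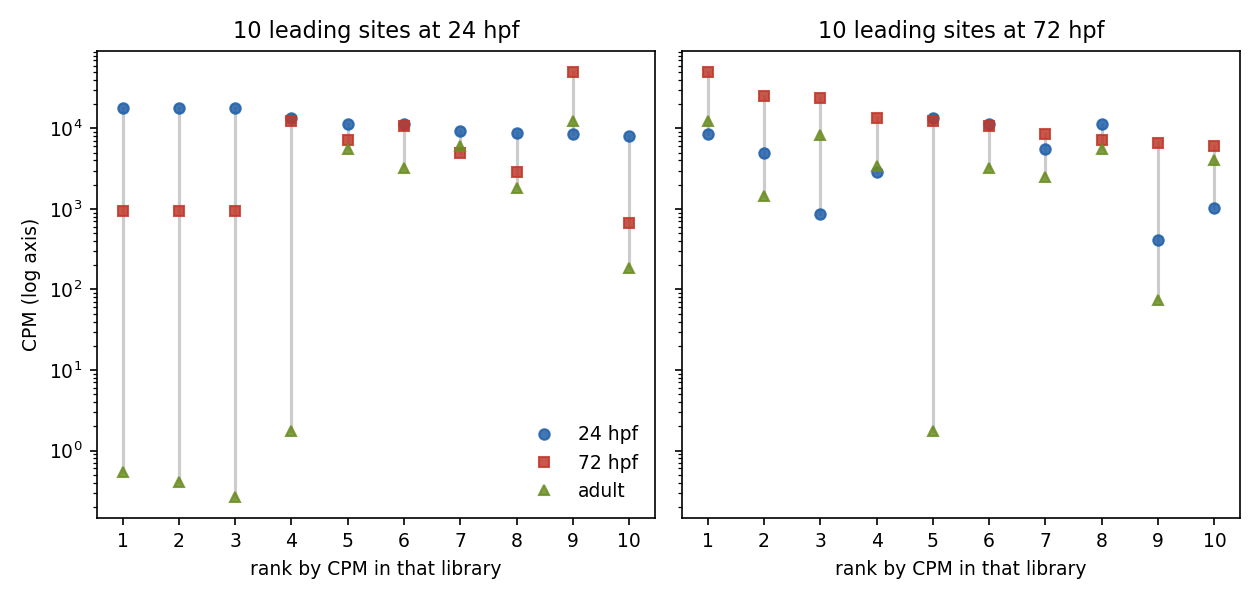
CPM (log axis) of the 10 sites with the most tags at 24 hpf (left) and at 72 hpf (right) in the 24 hpf library (blue circles), the 72 hpf library (red squares) and the adult library (green triangles), ordered by rank. The 3 leading sites at 24 hpf sit between 17842 and 17919.5 CPM there, between 935 and 944 CPM at 72 hpf and below 1 CPM in the adult, whereas ranks 4 to 6 lie close together in the embryo libraries.

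The largest ratios belonged to sites nearly silent in 1 library. Among the 12328 sites with at least 100 tags over both libraries, sites were ranked by fold with every count under 3 set to 3. The 10 largest folds higher ran from 169 to 531 on this scale, and 8 of these sites had at least 4 adult tags. Behind the chromosome 9 site at 23350948, taken up below, came the chromosome 12 plus-strand site at 14367790, where 4 tags at 24 hpf became 1783 at 72 hpf, and the adult held 3930. Its level was 0.539, 182 and 526 CPM, and its ratio between the embryo libraries 337 (95% interval 131 to 1239). It lies outside the lower stretch of the same chromosome.

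The best counted of these large folds was the chromosome 4 minus-strand site at 12642190. It held 29 tags in 14 intervals at 24 hpf (3.91 CPM) and 11097 tags in 66 intervals at 72 hpf (1131 CPM), a ratio of 289 (interval 201 to 432), and 443 adult tags (59.3 CPM). On chromosome 11, the plus-strand site at 26416749 went from 12 to 3118 tags, with 51 adult tags, a ratio of 197 (interval 112 to 381). The chromosome 6 plus-strand site at 41114495 held 7, 1826 and 15 tags in the same order. Chromosome 15 gave a plus-strand site at 44870331 with 5, 1306 and 103 tags. Of the 10, the chromosome 12 site at 14367790 alone had an adult level above that at 72 hpf.

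Folds lower in the same ranking ran from 132 to 273. They were led by the chromosome 25 plus-strand site at 23058621. It had 620 tags (83.5 CPM) at 24 hpf and 0 at 72 hpf, while the adult had 841 (113 CPM). With the 72 hpf count set to 3 tags, the site was 273-fold lower at 72 hpf. Its interval, taken from the count of 0, began at 222-fold. The tags at 24 hpf fell in 7 distinct intervals and those in the adult in 15. The chromosome 16 plus-strand site at 31773723 had the same pattern, with 1439 tags (194 CPM), then 9 (0.917 CPM), and 1684 adult tags (225 CPM). It was 211-fold lower at 72 hpf (interval 111 to 463). Both sites were thus low at 72 hpf and high in the other libraries. By contrast 6 of the 10 sites had no adult tags, and 5 of the 10 lay on chromosome 12. All 5 were among those without adult tags, and they need not be separate ends. Those at 18018783 and 18018797 are close neighbours on the plus strand. The minus-strand sites at 17809701, 17986301 and 17784820 are weak neighbours, 66 or 72 nt downstream, of strong near-equal sites described below. The chromosome 5 plus-strand site at 25978599 went from 5177 to 45 tags, with 6 adult tags, which is 152-fold lower at 72 hpf (interval 113 to 209).

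Sites without any tag in 1 of the libraries were mostly small. At 24 hpf 1871 sites had no tags, and 98 of them had at least 100 tags at 72 hpf. At 72 hpf 468 sites had no tags, and 24 of them had at least 100 tags at 24 hpf. Sites were selected on raw tags and the 72 hpf library is the larger, so these counts are not directly comparable between stages. The largest site silent at 24 hpf, on the minus strand of chromosome 14 at 22333790, held 634 tags in 16 intervals at 72 hpf (64.6 CPM) and 72 adult tags. With the 24 hpf count set to 3 tags, this site was 160-fold higher at 72 hpf. Its interval, taken from the count of 0, began at 130-fold. The next, on chromosome 6 minus strand at 6213013, held 450 tags at 72 hpf and 12 in the adult.

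At the other end, 1820 sites, 6.65% of all, lay within 1.1-fold between the libraries in CPM. Which sites these are depends on the scaling: 110 of them were within 1.1-fold under TMM and 0 under the median of ratios. The 0 was fixed in advance, since that scaling moves every log2 ratio by 0.28, more than the whole width of the 1.1-fold range. The 10 with the most tags had ratios of 0.773 to 0.884 under TMM and 0.760 to 0.869 under the median of ratios. The one with the most tags was the chromosome 8 minus-strand site at 47909509, with 83097 tags (11194 CPM) at 24 hpf and 106062 (10808 CPM) at 72 hpf, a ratio of 0.965 (95% interval 0.957 to 0.974). Its adult level was 3186 CPM. Second was the chromosome 20 minus-strand site at 54591836, with 4056 and 3981 CPM in the embryo libraries and 833 CPM in the adult one. The chromosome 14 plus-strand site at 25279620 held 1282 and 1252 CPM in the embryo libraries and stood at 17.9 CPM in the adult. The chromosome 19 minus-strand site at 5986769, with 988 and 958 CPM, had no adult tags. Among the 10 near-constant sites with the most tags, 9 had adult tags. Of all 1820, 84.6% had at least 4 adult tags, near the 81.8% of all uncalled sites. Of the 27364 compared sites, 21017 did.

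The genome was then divided into bins of 500 kb to see whether neighbouring sites were called alike. Of 307 bins with at least 20 sites, the median had 16.1% of its sites higher and 7.41% lower, and 66 had more lower than higher calls. Bins with at least 70% of their sites called in the same direction numbered 2, on chromosomes 9 and 12. With a bar of 60% the chromosome 4 bin from 61 Mb joined them (22 of 32 lower, 1 higher), and with 1 Mb bins the chromosome 12 bin alone passed.

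On chromosome 9 a long stretch of sites was almost silent at 24 hpf and high at 72 hpf. From 23038179 to 23660096, over 622 kb, 39 of 40 consecutive sites on both strands were higher, in runs of 19 and 20 separated by the minus-strand site at 23220088 (6 and 27 tags, ratio 3.40). Together the 40 sites held 74.2 CPM before and 4641 CPM after, and 2.41 CPM in the adult, and 36 of the 39 had no adult tags. Within the bin from 23 to 23.5 Mb, 38 of 47 sites were higher and 0 lower, 36 of them on the minus strand. With counts under 3 set to 3, as in the ranking above, their folds ran from 5.04 to 531 with a median of 48.4.

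The strongest of them, on the minus strand at 23161853, went from 136 tags (18.3 CPM) to 10047 (1024 CPM) and had no adult tags, a ratio of 55.9 (95% interval 47.2 to 66.7). At 23372001 there were 40 tags at 24 hpf and 6231 at 72 hpf, a ratio of 118 (interval 86.4 to 165). The next sites, at 23220540 and 23214820, held 66 and 37 tags at 24 hpf and 3617 and 2831 at 72 hpf, with ratios of 41.5 and 57.9. At 23350948 the tags numbered 2 and 2107 and fell in 2 and 10 intervals. Those at 23179887, 23124505 and 23314035 had 10, 34 and 26 tags at 24 hpf and 1904, 1878 and 1836 at 72 hpf. None of these 8 had adult tags, and they made up 67.0% of the CPM of the 38 higher sites at 72 hpf. All 8 had at least 10 distinct intervals at 72 hpf.

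Most of the 9 uncalled sites of the bin were of another kind: 8 had adult tags. The exception was the site at 23220088 within the stretch, which had no adult tags and a ratio of 3.40. Together the 9 held 108 and 149 CPM in the embryo libraries and 102 CPM in the adult one. Close sites were counted separately, with 7 gaps under 50 nt among the higher sites, so the 38 need not be separate ends. Whether sites were near-equal was examined from 1000 tags in an embryo library on, which 13 of the 38 reached, and none of these 13 was near-equal to another site. Outside this bin 21.5% of the 955 chromosome 9 sites were higher, against 24.3% for the whole chromosome and 20.3% for all sites.

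**Figure D4:**
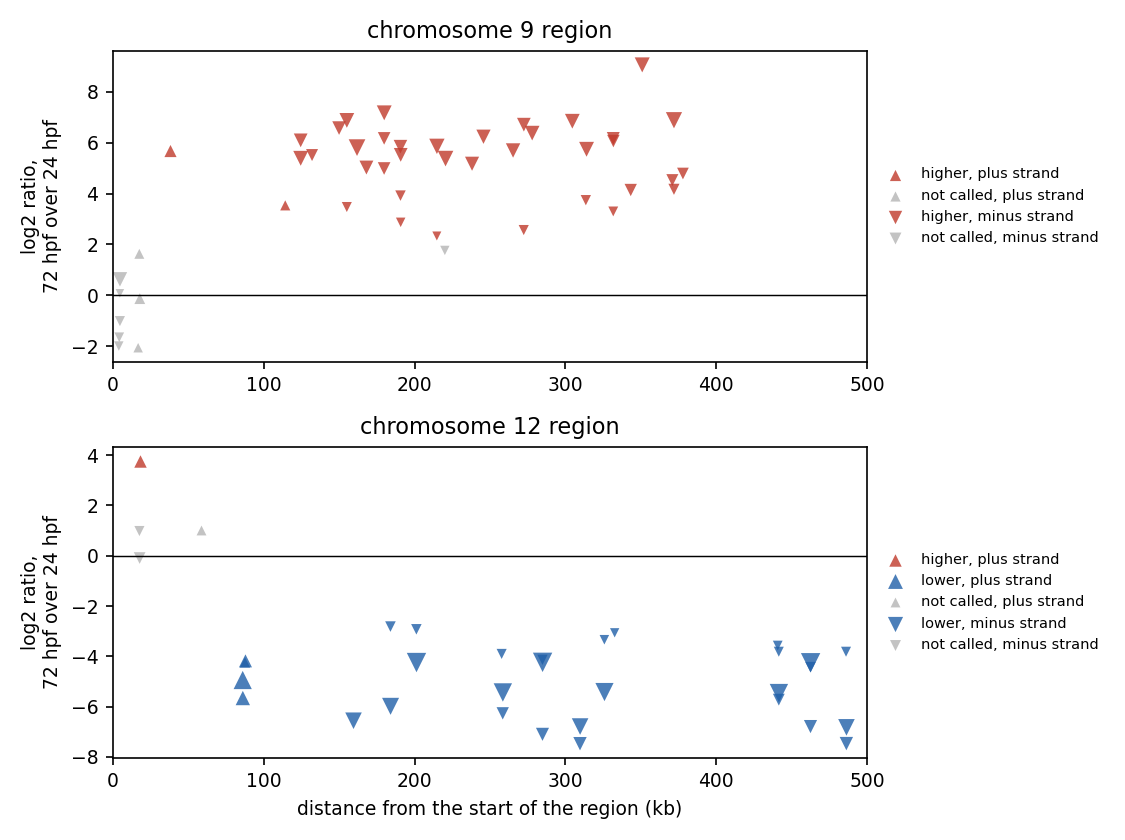
Log2 ratio of 72 hpf over 24 hpf (counts under 3 set to 3) of each site against its distance in kb from the start of the 500 kb bin, for the chromosome 9 bin (top) and the chromosome 12 bin (bottom); triangles point up for the plus and down for the minus strand, larger symbols mark a higher level, and colours mark calls. Most uncalled sites lie near the start of each bin, while red sites (chromosome 9) and blue sites (chromosome 12) fill most of the rest.

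Chromosome 12 held the opposite pattern. From 17586055 to 18018797, over 433 kb, 35 consecutive sites were all lower at 72 hpf, the longest run of calls in the genome. Their sum of 88296 CPM became 3558 CPM at 72 hpf and was 2.41 CPM in the adult, and 26 of the 35 had no adult tags. Close sites were counted separately here too, so the 35 need not be separate ends. Several strong ones were near-equal to another site, as described below, so the sum is uncertain as well. In the bin from 17.5 to 18 Mb, 30 of 34 sites were lower, 26 of them on the minus strand, with folds from 7.05 to 178 and a median of 26.2, counts under 3 again set to 3. The 1 higher site, on the plus strand at 17517852, held 14 tags at 24 hpf and 253 at 72 hpf.

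Behind the 3 leading sites of the stretch stood the minus-strand sites at 17941585 and 17758538. They held 44189 and 43934 tags at 24 hpf, against 1324 and 1339 at 72 hpf and none in the adult, and were 44.1-fold (95% interval 41.8 to 46.6) and 43.4-fold (interval 41.1 to 45.8) lower. The plus-strand site at 17586055 held 36308, 1560 and 1 tags and was 30.8-fold lower (interval 29.2 to 32.4). At 17825928 on the minus strand there were 36129, 1114 and 2 tags, 42.9-fold lower, and at 17684092 there were 10527, 219 and 0 tags, 63.5-fold lower. At the far end, outside the bin, the plus-strand site at 18018797 held 26034 tags at 24 hpf and 182 at 72 hpf, 189-fold lower (interval 163 to 220).

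The minus-strand sites of this stretch repeated a layout. Of 11 with at least 1000 tags at 24 hpf, 10 had a weak site 66 to 79 nt downstream, with 23 to 404 tags at 24 hpf and 0 to 9 at 72 hpf. The site at 17809767, for example, held 6797 tags and its weak neighbour at 17809701 held 404. At 17986367 and 17986301, which are the same 66 nt apart, the tags numbered 6865 and 403. Of the 11 sites, 9 were near-equal to another site in total and interval profile, and the level of each is therefore uncertain. Whether their sequences are alike was not tested. The folds of the 11 ran from 18.9 to 113 lower. Outside the bin, 6.19% of the 969 chromosome 12 sites were lower, against 8.97% for the whole chromosome. The share of all tags on chromosome 12 went from 10.9% to 3.28%.

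Shorter runs of neighbouring calls occurred on other chromosomes. Runs of at least 5 consecutive sites numbered 54 for higher calls, with 341 sites, and 17 for lower calls, with 139 sites. These counts include the runs of 19 and 20 on chromosome 9 and of 35 on chromosome 12, and were made after the data were seen. How many runs the shares of all sites (20.3% higher and 7.95% lower) would give was not tested. Some runs are short, such as 5 higher sites within 0.439 kb of chromosome 5, so the sites of a run need not be separate ends. Chromosome 23 had 11 consecutive higher sites from 17826202 to 17952776, which together went from 11.7 to 655 CPM, with 6.02 CPM in the adult. Chromosome 3 had 10 from 47324748 to 47342054, at 8.08, 188 and 6.43 CPM. Of the lower runs, 11 sites of chromosome 16 from 48968122 to 48994142 went from 2078 to 154 CPM, with 71.3 in the adult. On chromosome 4, 10 minus-strand sites from 61280515 to 61298475 went from 135 to 8.56 CPM, with 8.43 in the adult. A chromosome 22 run of 7 plus-strand sites, from 14238696 to 14248790, held 7317, 446 and 0.402 CPM. In these 5 runs the adult level lay below both embryo levels. It lay above both on chromosome 25 from 32079815 to 32231343, where 8 higher sites held 124, 919 and 1292 CPM. The same was found on chromosome 4 from 61123939 to 61147431, where 6 lower minus-strand sites held 31.8 CPM at 24 hpf, no tags at 72 hpf and 4223 CPM in the adult.

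Per chromosome the calls varied less. Higher sites made up from 16.4% (chromosome 4) to 24.3% (chromosome 9), and lower sites from 4.92% (chromosome 24) to 11.2% (chromosome 4). Scaffolds gave 22.4% and 8.00%. Median log2 ratios ran from 0.16 on chromosome 4 to 0.62 on chromosome 24, and that of chromosome 4 turned negative under the median of ratios and under TMM. That of chromosome 2 did so under the median of ratios alone. Sums of tags moved more than counts of calls: chromosome 17 went from 2.64% to 7.09% of all tags, in large part through its site at 758922, and chromosome 3 from 5.30% to 8.38%.

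Sites standing alone were higher more often than sites with neighbours. Of the 11994 sites with no other compared site within 5000 nt on the strand, 24.9% were higher and 5.53% lower. Of the 10986 whose nearest neighbour lay 50 to 5000 nt away, 17.4% were higher and 9.65% lower, and of the 4384 with a neighbour closer still, 15.0% and 10.3%. The order was the same among sites with at least 100 tags, with 19.04%, 13.2% and 12.5% higher and 3.62%, 5.94% and 7.86% lower. Lone sites had a median of 99 tags over both libraries, against 66 and 89 for the other groups, and whether a group's spacing relates to the calls beyond such differences was not tested.

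The adult library took no part in the rule for calls and gave a further reading of them, though its tags helped to place the clusters. It also differed in make-up: 53.0% of its intervals had 1 tag, against 15.1% at 24 hpf and 14.6% at 72 hpf. At least 4 adult tags were found at 66.2% of the 5561 higher sites, at 58.9% of the 2176 lower sites and at 81.8% of the uncalled sites. Abundance differs between these groups, so the shares were also compared within classes of tags. With 100 to under 200 tags, 83.7% of higher, 75.1% of lower and 92.6% of uncalled sites had adult tags, and with 200 to under 500 tags 92.0%, 78.6% and 97.3%. Uncalled sites thus came first in each of the 7 classes. With at least 10000 tags, 21 of 22 higher and 17 of 28 lower sites were detected, and 9 of the 11 lower sites that were not detected lay in the chromosome 12 stretch.

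In levels, the adult CPM lay between the embryo levels at 62.6% of the higher sites, below both at 27.1% and above both at 10.3%. For the lower sites these shares were 50.6%, 35.7% and 13.7%, and for the uncalled sites 15.5%, 61.6% and 22.9%. Called sites have embryo levels at least 4-fold apart by rule, which by itself leaves more room between them. The sites were also selected on embryo tags. They held 67.3% of the adult tags, against 94.7% at 24 hpf and 93.2% at 72 hpf. Higher sites with at least 100 tags had a median of 2.42 CPM at 24 hpf, against 23.0 CPM at 72 hpf, and of 3.21 CPM in adults. Lower sites of that size had medians of 32.2, 4.48 and 6.16 CPM. For both groups the median adult level was thus nearer to the lower embryo level than to the higher one. Since the sites were chosen for being high in 1 of the embryo libraries, this order is a description. In all, higher sites held 8.98% and lower sites 7.16% of the adult tags.

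Neighbouring sites of the same strand were compared next, to see whether they were called alike and whether tags moved between them. Sites 50 to 5000 nt apart with no other compared site between them formed 7209 pairs. A site with such a neighbour on each side entered both pairs. Where the upstream site was higher, the downstream site was higher in 578 of 1053 pairs (54.9%, against 20.3% of all sites) and lower in 15. Where the upstream site was lower, the downstream site was lower in 246 of 852 (28.9%, against 7.95%) and higher in 26. Neighbours thus mostly shared a direction when both were called, but without annotation a pair may belong to 1 gene or to several.

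Opposite calls, in 41 pairs, were few. The pair with the most tags lay on the minus strand of chromosome 19. Its upstream site at 5974115 went from 1359 to 254 CPM and its downstream site at 5969560 from 1.62 to 33.5 CPM, while the adult held 439 and 0 CPM. On chromosome 13, plus strand, the upstream site at 22692799 went from 21 to 5 tags and the downstream site at 22692898, 99 nt further, from 389 to 2119. Chromosome 7 had a plus-strand pair in which 7963813 went from 20 to 1 tag and 7964194 went from 67 to 432. In the adult, this pair held 1 and 173 tags.

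The share of a pair's tags at its downstream site does not depend on library scaling. It was measured in the 6015 pairs that held at least 20 tags in both libraries. A shift meant a change of at least 20 percentage points, whatever its counting interval. At 72 hpf 929 pairs had moved downstream, which is 15.4%, and 574 upstream, which is 9.54%, so 61.8% of the moved pairs went downstream. Pairs may share a site, so these are not counts of separate events. A rise at a shared site can count as downstream with its upstream neighbour and as upstream with its downstream neighbour. The median share at the downstream site was 52.7% at 24 hpf and 58.8% at 72 hpf. Within a pair the change was smaller, with a median of 1.41 points downstream. The site with most of the tags changed from upstream to downstream in 639 pairs and from downstream to upstream in 390, and was the same at both stages in 2713 pairs led by the downstream and 2273 led by the upstream site. With at least 100 tags in each library a much smaller part moved, 152 of 2852 pairs downstream and 72 upstream. Counting error at low tags may thus make up part of the moves at 20 tags, which was not tested.

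Downstream movement was more frequent in pairs further apart up to 2000 nt, and not beyond. It was found in 10.96% of the 967 pairs under 100 nt apart, 15.0% of the 1398 pairs 200 to under 500 nt apart and 20.5% of the 740 pairs 1000 to under 2000 nt apart. Among the 921 pairs further apart it was found in 175, or 19%, and upstream movement was at its highest there, in 12.7%. Downstream moves made up 59.9% of the moved pairs in that class and 68.2% in the one before. Over all classes upstream movement ranged from 7.79% to 12.7%, and downstream moves outnumbered upstream ones in all 6. At 20 tags the counting interval of a share is wide, and the classes of distance are given for that minimum only.

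**Figure D5:**
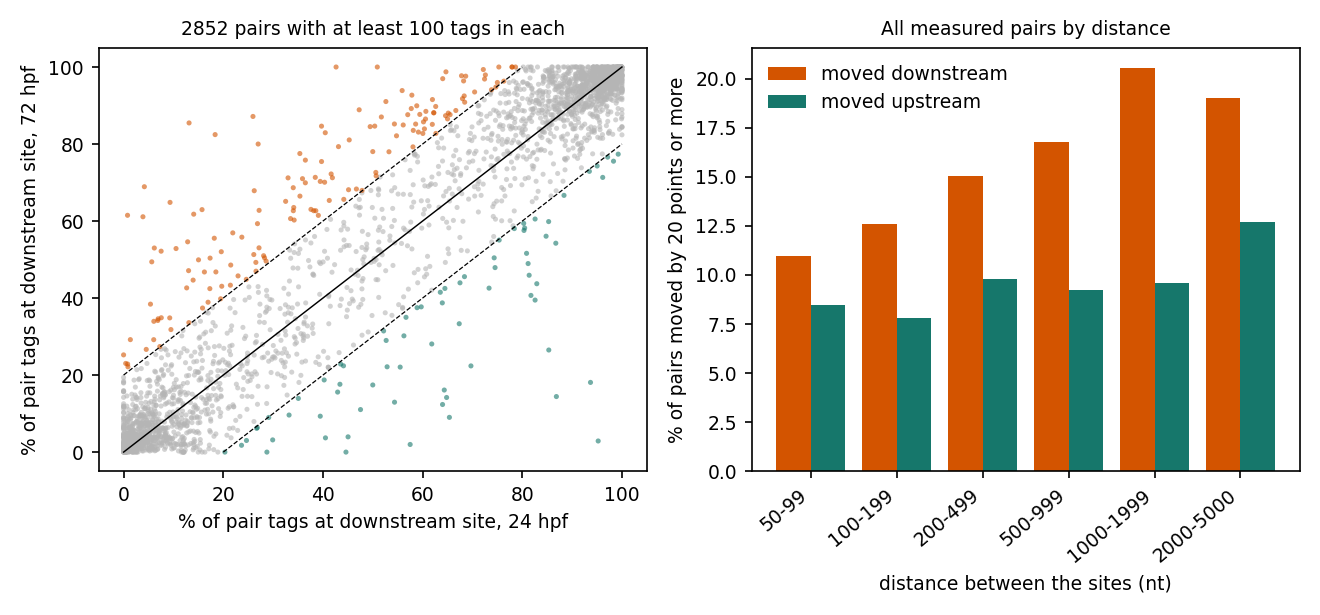
Left, percent of the tags of a pair found at its downstream site at 24 hpf (horizontal) and at 72 hpf (vertical) for the 2852 pairs that had at least 100 tags in both libraries, with dashed lines at 20 points of change; right, percent of all 6015 pairs that moved downstream (orange) and upstream (green) by the distance between the sites in nt. Orange bars are taller than green ones in all 6 classes, and the tallest, from 1000 to under 2000 nt, is 20.5%.

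The largest downstream move among the 2852 pairs was on chromosome 11, minus strand, between the upstream site at 37098891 and the downstream site at 37095074. Their tags were 562 and 85 at 24 hpf and 289 and 1701 at 72 hpf, so the downstream share went from 13.1% to 85.5%, and it was 94.9% in the adult. On chromosome 7, plus strand, 26195506 and 26196205 held 161 and 7 tags at first and later 60 and 133. The downstream share there went from 4.17% (95% interval 1.69% to 8.4%) to 68.9% (61.9% to 75.4%), with 29.4% in the adult. A second chromosome 11 pair (2521387 and 2519690) went from 18.4% (12.5% to 25.6%) to 82.4% (76.2% to 87.6%), and the adult stood at 2.84%. Between 34277009 and 34272769 on the minus strand of chromosome 14 the share moved from 26.0% to 87.2% with 25.1% in the adult. At chromosome 8, plus strand, 21669209 and 21671138 went from 0.792% to 61.5% with 13.2% in the adult. In 4 of these 5 pairs the adult share was nearer to that at 24 hpf.

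The largest upstream move was on chromosome 5, minus strand, between 32174909 and 32173715. The upstream site went from 28 to 202 tags and the downstream site from 559 to 6, a downstream share of 95.2% (95% interval 93.2% to 96.8%) and then 2.88% (1.07% to 6.17%), with 83.1% in the adult. Both sites were called, in opposite directions. Next, on the minus strand of chromosome 3, the tags of 55999278 and 55998438 went from 93.7% downstream (95% interval 90.3% to 96.2%) to 18.1% (11.3% to 26.8%) and had no adult tags. Its upstream site rested on 1 interval at 24 hpf and 2 at 72 hpf. The chromosome 7 plus-strand sites 36231492 and 36231578, which are 86 nt apart, went from 86.8% to 14.4%, and the adult stood at 65.4%. Between 32261514 and 32261727 on the plus strand of chromosome 25 the share moved from 85.3% to 26.5% and had no adult tags. At chromosome 9, minus strand, 43806039 and 43801398 went from 65.4% (60.9% to 69.7%) to 9.02% (8.06% to 10.05%), and the adult share was also 9.02%. There the upstream site grew from 161 to 2985 tags while the downstream site held 304 and 296.

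Of the moved pairs, 582 downstream and 354 upstream ones also had at least 20 adult tags. The downstream ones had median shares of 33.3% at 24 hpf and 71.5% at 72 hpf, against 41.3% in the adult, with the adult nearer to 24 hpf in 351. The upstream ones had medians of 68.2%, 28.8% and 30.2%, with the adult nearer to 72 hpf in 248. Over all 4590 pairs with at least 20 adult tags the medians were 54.5%, 60% and 40%.

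Within a site, the exact position of the cut was mostly the same at both stages. Of 13837 sites with at least 20 tags in each library, 12155 (87.8%) had their leading position at the same nucleotide. It lay 1 nt away in 216, 2 to 5 nt away in 938 and 6 nt or more in 528. With at least 100 tags in each, 5254 of 5660 (92.8%) had the same leading position. This held for 94.5% of 380 called and 92.7% of 5280 uncalled sites. The leading position of the pooled libraries held a median of 81.3% of a site's tags at 24 hpf and 80.9% at 72 hpf.

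In 308 of the 5660 sites this share changed by at least 20 points. The chromosome 7 plus-strand site at 20649221 changed most. Its leading position held 1556 of 1839 tags at 24 hpf (84.6%, 95% interval 82.9% to 86.2%) but 19 of 615 at 72 hpf (3.09%, 1.87% to 4.78%), where 20649217, 4 nt upstream, led. In the adult the first position held 55.7%. On chromosome 20, the plus-strand site at 20885908 went from 82.2% to 11.01% with the lead 2 nt downstream at 72 hpf. The chromosome 25 plus-strand site at 32261727, the downstream member of a pair above, went from 78.6% to 8.91% with the lead 1 nt upstream. In the other direction, the chromosome 20 minus-strand site at 15099519 went from 10.3% (6.90% to 14.6%) to 72.8% (68.3% to 77.0%). The chromosome 25 minus-strand site at 35497760 went from 17.2% to 73.5%. The sources used here do not give the precision of the mapped ends.

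Sites of opposite strands within 100 nt of each other mark transcripts that run toward each other and end close together or overlap. There were 466 such pairs with 801 sites, of which 17.1% were higher and 7.74% lower, near the shares of all sites (20.3% and 7.95%). Both sites were higher in 17 pairs and lower in 3. They had opposite calls in 5. The pair with the most tags among these lay on chromosome 1, where the plus-strand site at 4393282 went from 811 to 139 tags and the minus-strand site at 4393283 from 26 to 227. In the adult they held 300 and 80 tags. On chromosome 8, the plus-strand site at 26604335 went from 65 to 434 tags and the minus-strand site at 26604333 from 19 to 3.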

How the data were processed

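Of the series, 3 libraries made with 3P-Seq were used, 1 per stage (24 hpf, 72 hpf and adult). The authors deposited, for each library, stranded genome intervals with an integer in the name field, read here as a raw tag count made from aligned tags. No label or header states this. Tags were aligned with Bowtie to Zv9 (danRer7), per the submitters' processing notes, and the sources used here do not give the version or any filter on multiple matches. The display offset of 1 in the file headers was added to positions. RNA 3′ ends, taken from the downstream edge of each interval, were clustered by strand over all 3 libraries, the strongest position first absorbing all within 10 nt. Clusters with at least 4 tags were kept. CPM used the whole library as denominator. Ratios have exact conditional Clopper-Pearson 95% intervals and shares exact binomial ones. A library without tags was set to 3 tags for the ratio, but not for its interval. Sites were near-equal when at least 1000 tags in an embryo library differed by at most 1.1 times and chi-square per degree of freedom over tag length and end was under 1.6. Named sites were the 10 leading by CPM in each library, the 10 largest folds in each direction, the 10 near-constant ones with the most tags, 8 per passing bin, and the 5 largest moves; runs and opposite calls were named after their values were seen. Members, rules and lists were chosen with earlier results of these data known. Python 3.11.15, scipy 1.17.1 and edgeR 4.0.16 (TMM factors only) were used, and the steps were tested on simulated data. No count test between stages was possible with 1 library each. The other samples of the series were not used here.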

Additional observations from a re-analysis of the deposited data

How the results depend on the processing

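No paired analysis was possible because each stage has 1 library, and no library can be left out. With the call at 2-fold, 9667 sites were higher and 5109 lower, with 71.8% of them detected in the adult (64.1% as reported), and at 8-fold 2466, 1003 and 63.0%. With at least 100 tags these values were 1960, 633 and 86.6%. Without a tag minimum 6334 sites were higher and 4596 lower. In that setting 51.8% of called sites were detected in the adult and the median log2 ratio was 0.75, against 0.38. That median was 0.10 under the median of ratios and 0.12 under TMM. With at least 5 distinct intervals, 1411 sites were lower and 71.8% of called sites had adult tags. A 24 nt window gave 65.4% for that share and 86.4% for sites with the same leading position. That last value was 92.8% with at least 100 tags in each library and 68.2% over distinct intervals. Counting distinct intervals in place of tags gave 26 higher and 105 lower sites, a median log2 ratio of -0.0543, 42.0% of called sites detected in the adult and 31 pairs moved downstream against 23 upstream. By construction a site has few distinct intervals however many tags it holds. Over intervals the chromosome 7 site at 31296974 had a ratio of 0.874 in place of 5.00, and 23 of the 34 called sites among those named by rank lost their call. Pairs moved by at least 40 points numbered 314 downstream and 166 upstream, and with at least 100 tags 152 and 72. With 1 Mb bins 1 region passed in place of 2. The cause of the other changes was not tested.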
